A study of Mus musculus with 2 samples.

Results

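ATF4 and a set of its target genes, 10 genes in all (Atf4, Ddit3, Trib3, Asns, Psat1, Phgdh, Chac1, Slc7a11, Ddit4 and Sesn2), were followed in mouse peritoneal macrophages treated with LPS+CPN+GGOH and in those treated with LPS+CPN. They are 10 of the 18193 genes with a probe set of their own and were read from the 21 probe sets, of 45101 on each array, whose platform annotation gave exactly 1 of these symbols. The members were chosen by the ratios of Chac1, Psat1, Ddit4 and Asns, which were higher with GGOH on these same arrays. Every ratio below therefore describes the contrast that chose the members and carries no test. The group treated with LPS+CPN+GGOH and the group treated with LPS+CPN were both macrophages of C57BL/6J mice, collected 3 days after thioglycolate (an inflammatory irritant that recruits them to the peritoneum), and each was measured on 1 array. LPS is lipopolysaccharide, a bacterial ligand of TLR4. GGOH is geranylgeraniol, an isoprenoid alcohol. CPN is named in the labels by this abbreviation alone, and no source used here states doses or times. An untreated group, a group given LPS alone and a group given GGOH alone were not analysed here.

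ATF4 is a bZIP transcription factor whose protein is made mainly when the translation initiation factor eIF2 is phosphorylated, so its mRNA level is only part of its control. The kinases that phosphorylate eIF2 respond to amino acid shortage, unfolded proteins in the endoplasmic reticulum, double-stranded RNA or haem shortage, and the whole programme is called the integrated stress response. Its targets make and import amino acids, charge tRNAs, alter glutathione handling and restrain the growth kinase complex mTORC1.

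ATF4 and its C/EBP-type partners are known to bind a composite element read here as TGATGNAA. The promoter windows of RefSeq genes (build GRCm38.p6, 250 bases before to 50 after each annotated start) held a match on either strand in 4 of the 10 members, against 3.97% of all 32851 windows. The 4 members were Chac1, Asns, Slc7a11 and Trib3. The array values did not choose this element, but the members were listed as ATF4 and its target genes. Because ATF4 is known to bind the element, the share of 4 of 10 is not independent of how the list was made. Nothing is read from its size, and it counts genes whereas 3.97% counts windows. Each of the 4 stretches is written along the gene's strand, with the matched letters in capitals. The Chac1 stretch (chr2:119350992-119351141, plus strand) spans bases -250 to -101, the Asns stretch (chr6:7693210-7693359, minus strand) bases -150 to -1, and the Slc7a11 stretch (chr3:50443614-50443723, minus strand) bases -110 to -1, all counted from the annotated start. The Trib3 stretch (chr2:152344029-152344058, minus strand) covers 30 bases around its match, which lies after the start.
Chac1: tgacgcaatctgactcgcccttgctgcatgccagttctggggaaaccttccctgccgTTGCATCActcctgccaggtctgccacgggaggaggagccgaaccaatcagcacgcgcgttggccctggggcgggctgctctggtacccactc
Asns: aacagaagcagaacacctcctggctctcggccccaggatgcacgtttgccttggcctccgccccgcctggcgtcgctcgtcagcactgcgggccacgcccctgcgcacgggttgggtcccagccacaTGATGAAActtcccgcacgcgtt
Slc7a11: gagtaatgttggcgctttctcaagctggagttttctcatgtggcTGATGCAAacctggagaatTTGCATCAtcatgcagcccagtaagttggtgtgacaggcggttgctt
Trib3: attagctcaggtTTACATCAgccgggcggg

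The first matched base lay at -193 in Chac1, at -23 in Asns, at -66 and -47 in Slc7a11, and at 15 after the start in Trib3. In Chac1, Trib3 and the second Slc7a11 match the element was read on the opposite strand. No match was found in the windows of Atf4, Ddit3, Phgdh, Ddit4 or Sesn2, nor in either of the 2 windows of Psat1. A match is a string of letters, not a measured binding site, and these windows leave out introns and more distant sequence. Per gene rather than per window, 4.51% of all 27025 genes had a match, as did 2.74% of the genes measured on these arrays that had a window and 1.91% of those at least 2-fold higher with GGOH. Among other pathway genes listed below that had a window, 15 of 126 had a match (11.9%), and of the 9 with a window that were at least 2-fold higher, 0 had one. These lists include reported ATF4 targets, so their share too is not independent of how they were made. Nothing is read from it.

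**Figure D1:**
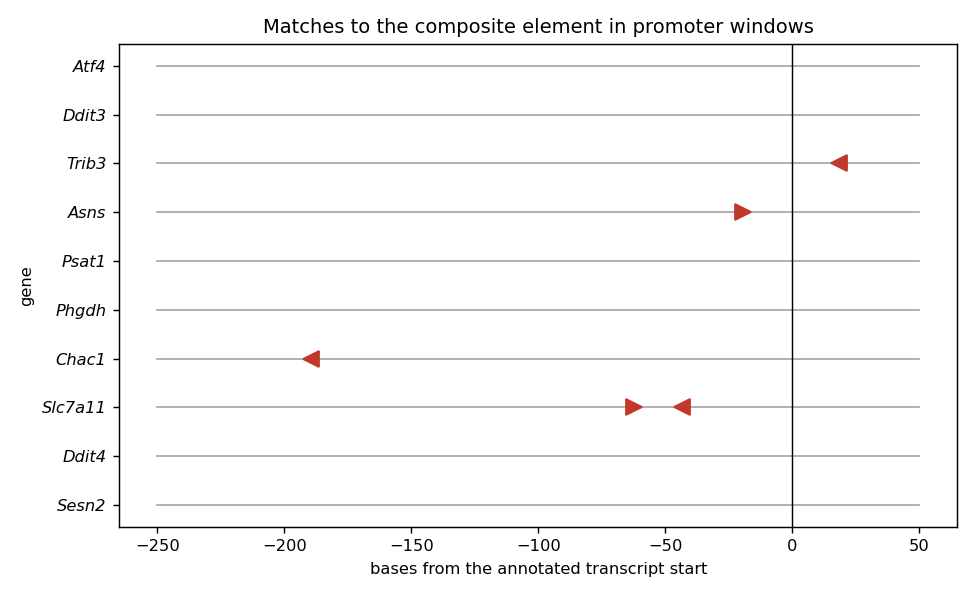
Position of each match to the element in the promoter window of each member gene, in bases from the annotated transcript start (x axis). Right-pointing triangles are matches on the gene's own strand and left-pointing ones on the opposite strand; Slc7a11 has matches at -66 and -47, while 6 of the 10 genes have none.

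A value here is a MAS5 signal, a linear intensity per probe set that the authors had brought to a common level on both arrays. Below, "with GGOH" is the LPS+CPN+GGOH array and "without" the LPS+CPN array. Medians over all probe sets were 63.7 on the LPS+CPN+GGOH array and 56.7 on the LPS+CPN array. Signals at or below 59.9, the 50th percentile of both arrays pooled, were treated as not measured, and a gene above this floor on only 1 array has a bound in place of a ratio. Log2 ratios of different probe sets of 1 gene had a pooled SD of 0.45, which scales the error within these arrays and says nothing of the spread between cultures or animals. On the LPS+CPN+GGOH array 15 of 18 measured mesothelial and fibroblast markers were at least 2-fold higher, against 5.50% of all measured genes. The median of these markers' log2 ratios was 2.51. Their summed signal was 32849 on the LPS+CPN+GGOH array and 1684 on the LPS+CPN array, where the defining markers Wt1, Msln, Upk3b, Pdgfra and Col1a1 were at the floor. Without GGOH 4 markers of the list exceeded the floor, namely Dcn (5043 with GGOH, 565 without), Sparc (9006 with GGOH, 316 without), Col1a2 (11165 with GGOH, 287 without) and Krt8 (723 with GGOH, 93.8 without). All 19 macrophage markers were measured on both arrays, with a summed signal of 346593 with GGOH and 413113 without and a median log2 ratio of -0.27. Of these, Itgam and Mrc1 were at least 2-fold higher and 0 lower, against 5.50% and 1.66% of all measured genes. Nothing is read from so small a count. Neither gene passed 2-fold under median scaling, quantile normalization or lowess (a smooth curve of ratio on signal, subtracted). Neither did so with the floor added as a pseudocount, nor with a 75th-percentile floor, where Mrc1 was not measured. None of 9 T and B cell markers was above the floor on either array, against 3 of 11 neutrophil, eosinophil and mast cell markers (S100a8, Mmp8 and Ngp) and 2 of 7 endothelial markers (Kdr and Vwf) that were above it on at least 1. The 3′ to 5′ signal ratio of the control probe sets was 1.24 with GGOH and 2.44 without for Actb, and 0.956 with GGOH and 1.98 without for Gapdh. The part that these differences play in any member's value was not tested. More RNA per cell and more cells of a type cannot be told apart in such bulk samples.

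Of the 10 members, 9 had a gene value, taken from the brightest probe set outside the _x_at class, and Phgdh had only _x_at probe sets, whose probes can bind related transcripts. Of these 9 genes, 4 were at least 2-fold higher with GGOH (Chac1, Psat1, Ddit4 and Asns), 0 were at least 2-fold lower, and 5 passed neither limit. Over all 11518 measured genes, 5.50% passed 2-fold upwards and 1.66% downwards; since these ratios chose the genes, nothing is read from the members' larger share. The 9 genes had a median log2 ratio of 0.68, and all measured genes one of -0.01. Asns, at 1.15, lay just inside the 2-fold limit, and Trib3, at 0.68, was the nearest gene outside it. Counted by probe set, 20 of the 21 were measured and 10 of these were at least 2-fold higher, against 6.29% of all measured probe sets with 1 gene symbol. The probe set not measured was 1 of 3 for Atf4, with signals of 3.09 with GGOH and 3.01 without.

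**Figure D2:**
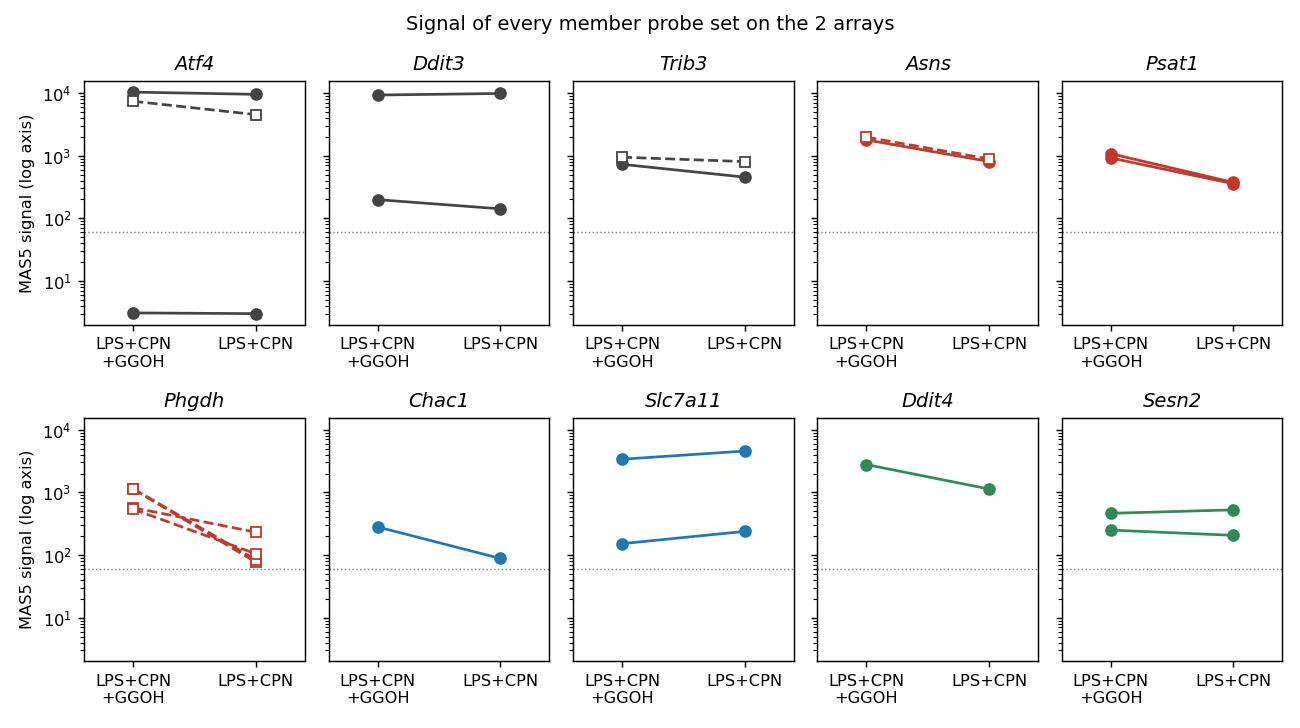
MAS5 signal (log axis) of all 21 member probe sets on the LPS+CPN+GGOH array (left in each panel) and the LPS+CPN array (right), joined by a line per probe set; filled circles are ordinary probe sets, open squares with dashed lines the _x_at class, and the dotted line the floor of 59.9. All lines of Asns, Psat1, Phgdh, Chac1 and Ddit4 are higher on the left, those of Slc7a11 are lower on the left, and Sesn2 and Ddit3 each have a line in both directions.

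The 3 regulators were all within 2-fold. Atf4 itself had a signal of 10339 with GGOH and 9530 without, a log2 ratio of 0.12. Its _x_at probe set had 7386 with GGOH and 4521 without, a log2 ratio of 0.71, so the 2 probe sets agreed in sign and not in size. The ratio of the first probe set was -0.05 when both arrays were divided by their medians. Ddit3 encodes CHOP, a C/EBP-family factor induced by ATF4 and linked to cell death under prolonged stress. Its brightest probe set had 9292 with GGOH and 9824 without, a log2 ratio of -0.08, while the other had 199 with GGOH and 142 without, a log2 ratio of 0.49. The Ddit3 ratio also changed sign with the scaling, at 0.19 under equal macrophage markers (the arrays scaled so that these markers had a median log2 ratio of 0) and 0.04 after lowess. Trib3 is a pseudokinase, induced by ATF4 and CHOP, that feeds back on ATF4. It had 728 with GGOH and 455 without, a log2 ratio of 0.68, and 945 with GGOH and 805 without on its _x_at probe set, a log2 ratio of 0.23. Both probe sets of Trib3 were higher with GGOH, below 2-fold, and its ratio stayed above 0 under all 9 other settings (0.23 to 0.95).

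By gene value, the upstream part of the pathway showed no gene past 2-fold. Among 7 measured genes for eIF2 kinases, eIF2 phosphatase subunits and the exchange factor of eIF2, 0 were at least 2-fold higher or lower. The shares over all measured genes were 5.50% higher and 1.66% lower. A count of 0 in so short a list is near these shares, and nothing is read from it. The list's median log2 ratio of -0.22 became 0.05 under equal macrophage markers. Eif2ak2 had 3 measured probe sets, with log2 ratios from -0.20, its gene value, to 1.01. Eif2ak3, the kinase PERK of the endoplasmic reticulum, had 540 with GGOH and 773 without (log2 ratio -0.52). Eif2ak4, the kinase GCN2 that senses uncharged tRNA, had 481 with GGOH and 471 without, a log2 ratio of 0.03. Ppp1r15a (GADD34), which directs dephosphorylation of eIF2 and is itself a stress target, had 2833 with GGOH and 4052 without, a log2 ratio of -0.52. These are mRNA levels, and phosphorylation of eIF2 is not among the measurements.

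Partner and downstream transcription factors were also within 2-fold, at 0 of 10 in either direction. Of all measured genes, 5.50% passed that limit upwards and 1.66% downwards. The list's count of 0 is near these shares, and nothing is read from it. Atf3 had 10900 with GGOH and 14400 without, a log2 ratio of -0.40. Cebpb, a binding partner of ATF4, had 21927 with GGOH and 25682 without, a log2 ratio of -0.23, and Atf5 had a log2 ratio of -0.07. Fosl1 was the highest of this list at 0.62. The list's median of -0.14 became 0.13 under equal macrophage markers.

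The amino acid synthesis members were all higher with GGOH. Asns, asparagine synthetase, had 1787 with GGOH and 807 without, and 1973 with GGOH and 888 without on its _x_at probe set. The log2 ratios of the 2 probe sets were the same at 1.15. Psat1, phosphoserine aminotransferase and the second enzyme of serine synthesis, had 1075 with GGOH and 374 without, and 920 with GGOH and 356 without on its other probe set. These gave log2 ratios of 1.52 and 1.37, which differ by less than the SD between probe sets. Asns was close to the limit, at 0.98 with arrays divided by their medians, whereas Psat1 stayed between 1.36 and 1.79 under all settings.

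Phgdh, phosphoglycerate dehydrogenase and the first enzyme of serine synthesis, had no gene value at the deposited setting because each of its 4 probe sets is of the _x_at class. All 4 were more than 2-fold higher with GGOH, against 6.46% of 1409 measured _x_at probe sets with 1 symbol. The most different probe set had 1126 with GGOH and 77.2 without, a log2 ratio of 3.87. The next had 1140 with GGOH and 84.4 without, a log2 ratio of 3.76. The third had 539 with GGOH and 105 without, and the last had 569 with GGOH and 231 without, with log2 ratios of 2.36 and 1.30. The 4 probe sets thus shared a direction and differed in size, from 2.46-fold to 14.6-fold, by far more than the SD between probe sets. The probe set with the smallest ratio was the brightest on the LPS+CPN array. The other 3 had signals of 77.2 to 105 there, near the floor of 59.9. With _x_at probe sets kept, the gene took the value of that brightest set and 5 of 10 members were at least 2-fold higher, against 5.46% of all genes at that setting.

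The third enzyme of serine synthesis, Psph (phosphoserine phosphatase), is not a member and was likewise higher, with 814 with GGOH and 270 without, a log2 ratio of 1.59. It belongs to a list of 16 measured genes of serine, one-carbon and other amino acid synthesis, of which 6 were at least 2-fold higher and 0 lower, with a median of 0.55. Over all genes the same limits were passed by 5.50% and 1.66%. Shmt2, the mitochondrial enzyme that turns serine into glycine, had 306 with GGOH and 110 without, a log2 ratio of 1.48. Aldh18a1, which starts proline synthesis, had 279 with GGOH and 81.0 without, a log2 ratio of 1.78. The other 3 were above the floor only with GGOH. Cth, the cystathionine gamma-lyase that makes cysteine, was at least 7.25-fold higher, Aldh1l2, a mitochondrial folate enzyme, at least 7.08-fold, and Bcat1, the cytosolic branched-chain aminotransferase, at least 3.26-fold. Bcat1 had 2 measured probe sets, with log2 ratios of 1.71 and 0.17, and was below 2-fold as their median, at 0.94.
Not all of the list was higher. Mthfd2, a mitochondrial folate enzyme also known as an ATF4 target, had 2270 with GGOH and 2563 without, a log2 ratio of -0.17. Cbs, which precedes Cth on the route to cysteine, was lowest at -0.49. Most of the 6 higher genes had low signals, and at a 75th-percentile floor 1 of the list was at least 2-fold higher. The median stayed above 0 under all settings (0.24 to 0.82).

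**Figure D3:**
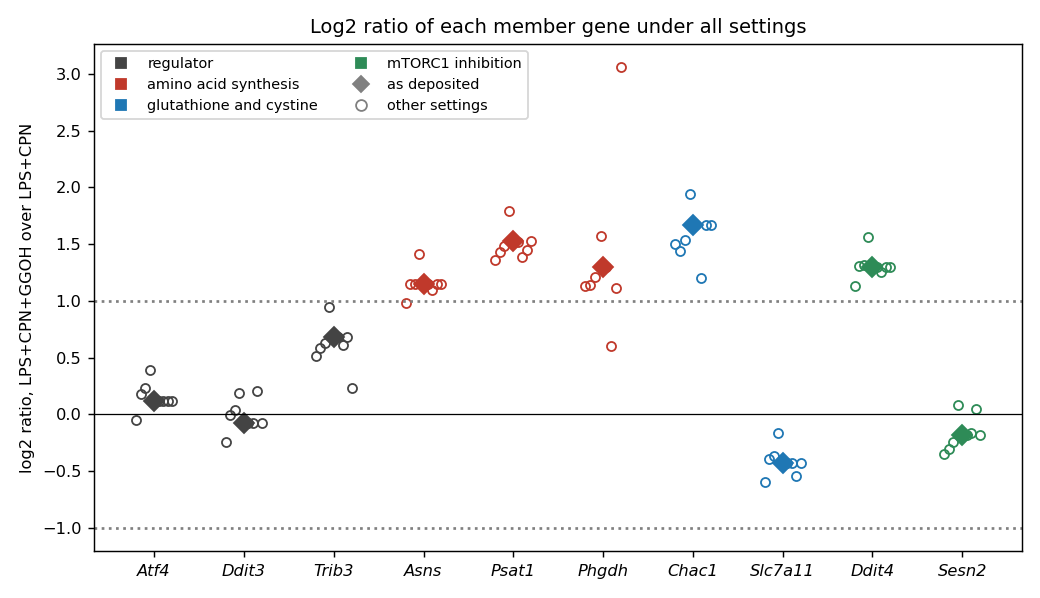
Log2 ratio of LPS+CPN+GGOH over LPS+CPN for each member gene, with a diamond for the signals as deposited and an open circle for each other setting; dotted lines mark 2-fold. Phgdh is drawn from its _x_at probe sets, by the brightest of them or, in the highest circle, by their median of 3.06. Psat1 and Ddit4 stay above the upper line throughout, Chac1 in every setting that measured it, and Slc7a11 stays below 0.

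Slc7a11 encodes the cystine importer xCT, which exchanges cystine for glutamate and so supplies cysteine for glutathione synthesis, and Chac1 breaks glutathione down inside the cell. Chac1 had 281 with GGOH and 88.3 without, a log2 ratio of 1.67 and the largest gene value of the members. It rests on 1 probe set whose LPS+CPN signal lay not far above the floor. The ratio was 1.20 with a pseudocount in place of the floor, and at a 75th-percentile floor the gene was not measured. Slc7a11 had 3382 with GGOH and 4564 without, and 152 with GGOH and 238 without on its other probe set, log2 ratios of -0.43 and -0.65. Both probe sets were lower with GGOH, below 2-fold, and the gene's ratio was below 0 under all settings (-0.60 to -0.16). Slc7a11 and Chac1 thus lay on opposite sides of 0. The windows of both hold a match to the element, as do those of Asns and Trib3. Any part of the element in these ratios was not tested.

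By gene value as deposited, other glutathione genes were within 2-fold, at 0 of 10 measured genes for making, recycling, breaking down, using and exporting glutathione. Of all measured genes, 5.50% passed 2-fold upwards and 1.66% downwards. The list's count of 0 is near these shares, and nothing is read from it. The list's median was -0.34, and its single probe sets ran from -1.14 (Gclm) to 1.49 (Glrx). As deposited 9 of the 10 had a ratio below 0, but 5 of 10 did under equal macrophage markers. Gsr, glutathione reductase, was lowest, with 2100 with GGOH and 3851 without (log2 ratio -0.88). With arrays divided by their medians Gsr was at -1.04, and 1 gene of the list was then at least 2-fold lower. Glrx, glutaredoxin, was the highest at 0.33. Chac2, the paralogue of Chac1, had a log2 ratio of -0.10. The list's median was -0.07 under equal macrophage markers and -0.50 with arrays divided by their medians. Gclm and Gclc, the subunits of the rate-limiting enzyme of glutathione synthesis, had log2 ratios of -0.78 and -0.68. Their other probe sets had -1.14 for Gclm and 0.01 for Gclc. Both genes were picked after their values were seen.

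The members that restrain mTORC1 diverged. Ddit4 (REDD1), which acts through the TSC complex and is also induced by hypoxia and glucocorticoids, had 2775 with GGOH and 1131 without, a log2 ratio of 1.29 on its only probe set. Sesn2 encodes sestrin 2, a leucine sensor that restrains mTORC1 through GATOR2. Its brightest probe set had 463 with GGOH and 526 without, a log2 ratio of -0.18, and the other had 250 with GGOH and 206 without, a log2 ratio of 0.28. Its 2 probe sets disagreed in sign, and the gene value became 0.09 under equal macrophage markers and 0.05 as the median of its probe sets. Ddit4 kept a ratio of 1.13 to 1.56 under all settings. Of 20 other measured mTORC1 regulators, 0 passed 2-fold by gene value, against 5.50% upwards and 1.66% downwards over all measured genes. That count is near these shares, and nothing is read from it. Gene values ran from Deptor at -0.42 to Flcn at 0.50, with a median of -0.02 that became 0.24 under equal macrophage markers. Single probe sets ran from -0.53 (Deptor) to 1.16 (Sesn1), and those of Deptor alone from -0.53 to 1.03.

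Genes that respond to hypoxia or glucocorticoids like Ddit4 were mixed. Of the 14 measured, 3 passed 2-fold upwards and 1 downwards, where the shares over all measured genes were 5.50% and 1.66%. These counts are small, and nothing is read from them. The list's median of -0.13 became 0.14 under equal macrophage markers. Vegfa, the vascular growth factor, had 7285 with GGOH and 3006 without, a log2 ratio of 1.28. Fkbp5, a glucocorticoid-induced chaperone, had 603 with GGOH and 253 without, a log2 ratio of 1.25. Adm, the vasoactive peptide adrenomedullin, was at least 4.65-fold higher. Ankrd37, a hypoxia-induced gene, had 325 with GGOH and 744 without, a log2 ratio of -1.20, and was within 2-fold under equal macrophage markers.

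**Figure D4:**
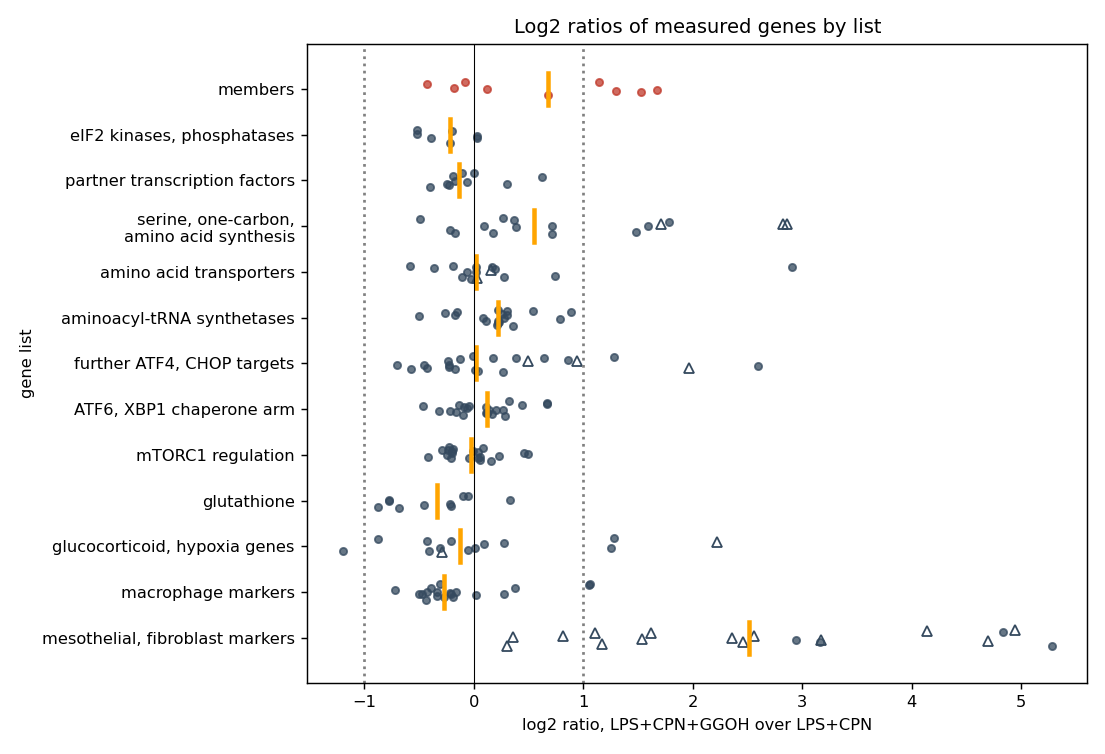
Log2 ratio of LPS+CPN+GGOH over LPS+CPN for every measured gene of each list, with filled circles for genes measured on both arrays, open triangles for genes known only by a bound, and an orange bar at the median; dotted lines mark 2-fold. Members (9 genes) and serine, one-carbon and amino acid synthesis genes (16) have medians of 0.68 and 0.55, macrophage markers lie at -0.27 and mesothelial and fibroblast markers at 2.51.

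Import of amino acids and charging of tRNAs, the other arms of the ATF4 programme, were mostly within 2-fold. Of 15 measured amino acid transporters, 1 was at least 2-fold higher and 0 lower by gene value. These counts are near the shares over all measured genes, 5.50% and 1.66%, and nothing is read from them. The higher gene was Slc7a5 (LAT1), the importer of large neutral amino acids, with 846 with GGOH and 113 without, a log2 ratio of 2.90. Slc3a2, the heavy chain that pairs with Slc7a5 and with Slc7a11, had 13914 with GGOH and 15856 without, a log2 ratio of -0.19. These transporters had a median of 0.02, or -0.15 with arrays divided by their medians. None of 19 measured aminoacyl-tRNA synthetases passed 2-fold, against 5.50% upwards and 1.66% downwards over all measured genes. That count is near these shares, and nothing is read from it. Of the 19 synthetases, 15 had a ratio above 0 (13 to 18 under the other settings). Their median was 0.22, positive under every setting (0.06 to 0.49). They ran from Wars, tryptophanyl-tRNA synthetase, at -0.50 to Iars, isoleucyl-tRNA synthetase, at 0.89. Under equal macrophage markers 2 of them were at least 2-fold higher.

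Further genes reported elsewhere as ATF4 or CHOP targets gave 3 of 22 at least 2-fold higher and 0 lower, against 5.50% and 1.66% of all measured genes. Their median was 0.02, or -0.14 with arrays divided by their medians. Besides Vegfa the higher genes were Gadd45a, a growth arrest gene, with 1896 with GGOH and 313 without (log2 ratio 2.60), and Ddr2, a collagen receptor of fibroblasts, which was at least 3.90-fold higher. The chaperone arm of the unfolded protein response, run by ATF6 and XBP1 rather than ATF4, had 0 of 22 gene values past 2-fold. The same shares over all measured genes apply here. A count of 0 is near them, and nothing is read from it. The list's median was 0.12, or -0.05 with arrays divided by their medians. Its single probe sets ran from -0.78 (Pdia4) to 1.35 (Hsp90b1). Hspa5 (BiP), the main chaperone of this arm, had 17961 with GGOH and 20853 without, a log2 ratio of -0.22. Xbp1 had 10585 with GGOH and 11609 without, a log2 ratio of -0.13. In this list Atf6 was lowest at -0.46 and Pdia6, a disulphide isomerase, highest at 0.67.

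**Figure D5:**
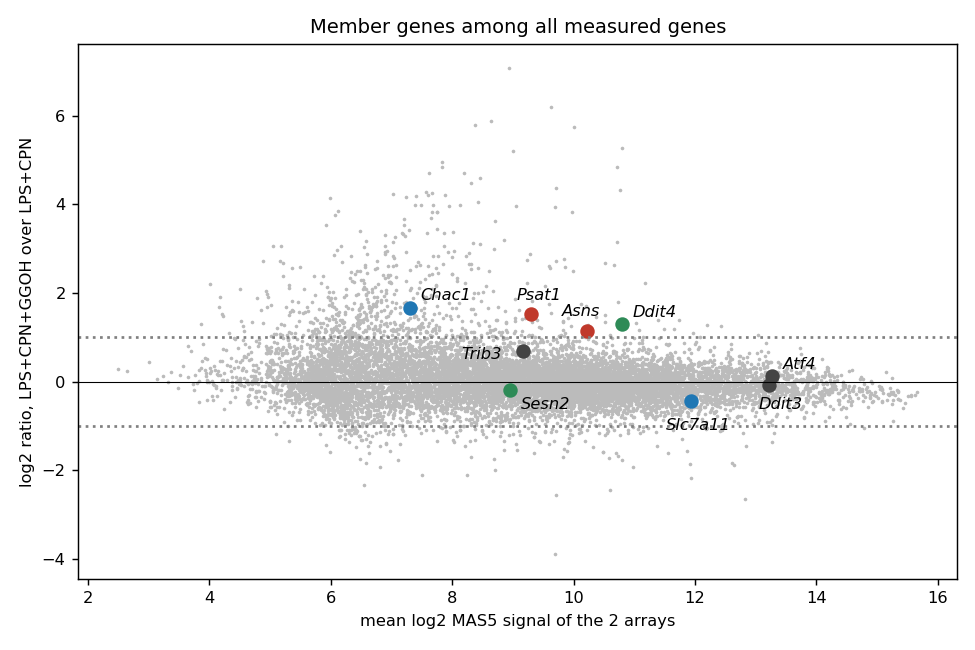
Log2 ratio of LPS+CPN+GGOH over LPS+CPN (y axis) against the mean log2 MAS5 signal of both arrays (x axis) for the 11518 measured genes in grey, with the 9 members that had a gene value in colour; dotted lines mark 2-fold. Psat1, Asns, Ddit4 and Chac1 lie above the upper line, Chac1 at the lowest signal of the members, while Atf4 and Ddit3 lie near 0 at high signal.

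Ordered by log2 ratio, the 9 members ran from Chac1 (1.67) through Psat1 (1.52), Ddit4 (1.29), Asns (1.15), Trib3 (0.68), Atf4 (0.12), Ddit3 (-0.08) and Sesn2 (-0.18) to Slc7a11 (-0.43). A difference between 2 ratios that each have an SD of 0.45 has an SD of 0.63, and each step in this order was smaller than that, so no neighbours are separated by these arrays. Ratios as high as that of Asns were found in 4.54% of the measured genes, and as high as that of Chac1 in 2.38%. With 1 array per group, likeness of pattern between genes could not be measured.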

How the data were processed

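The deposited table held 1 intensity per probe set and array, a MAS5 signal on a linear scale per the submitters' processing notes; no source used here gives its version or scaling target. Probe sets were named by the platform annotation, in which 34945 had 1 gene symbol. Signals at or below the 50th percentile of all non-control signals were set to that floor, and a gene took its brightest probe set outside the _x_at class. The log2 ratio was LPS+CPN+GGOH minus LPS+CPN. With 1 array per group there is no test, SE or p-value, and precision is limited by the number of arrays. Members and lists were chosen with earlier results of these data known. Named genes were all members, up to 4 per list past 2-fold (otherwise the highest and lowest), and 13 fixed genes of the pathway; cell type lists were given by counts, range and defining markers at the floor. Cbs, Chac2, Gclc, Gclm and the cell type markers named as above the floor or past 2-fold were chosen after their values were seen. Some listed genes had no probe set with 1 symbol. Another 9 settings were tried: 4 scalings, a lower and a higher floor (25th, 75th percentile), the floor added as a pseudocount, the median over probe sets, and _x_at probe sets kept. The steps were tested on simulated data (Python 3.11.15, pandas 2.3.3, statsmodels 0.14.6). Promoter windows came from RefSeq, GRCm38.p6.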

Additional observations from a re-analysis of the deposited data

Results flagged for a closer look

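Besides the 21 member probe sets, 2 probe sets list the member Phgdh together with a predicted gene (Gm6756 or Gm8096). Both were left out of every comparison above. Both had signal above the LPS+CPN level on the LPS+CPN+GGOH array. The first, of the _x_at class, had 633 with GGOH and 79.6 without, which is 7.95-fold higher. The second had 358 with GGOH and was at the floor without, which is at least 5.97-fold higher. Neither is assigned to a gene here.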

How the results depend on the processing

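Of the 9 members with a gene value, 4 were at least 2-fold higher as deposited; the count was 3 with arrays divided by their medians (without Asns), 3 with the floor at the 75th percentile (Chac1 not measured), 5 with _x_at probe sets kept (Phgdh added) and 4 under the other 6 settings. The members' median of 0.68 ranged from 0.40 to 0.95, and 0 members were 2-fold lower under any setting. Dividing by medians moved the median of all genes by -0.16 and equal macrophage markers by 0.25. Over all genes, 634 were higher and 191 lower as deposited, against 529 and 332 on median-scaled arrays, 503 and 307 on quantile-normalized arrays, 991 and 83 under equal macrophage markers, 1658 and 1127 with a 25th-percentile floor, 126 and 88 with a 75th-percentile one. The pathway lists together, 157 genes with a probe set, held 12 higher and 1 lower as deposited. Over all measured genes the shares were 5.50% higher and 1.66% lower. The lists' lower count was 3 with arrays divided by their medians or the floor at the 25th percentile. It was 0 under equal macrophage markers or the floor at the 75th percentile, and at that floor 4 were higher. The lists' count of higher genes was 17 under equal macrophage markers and 18 at a 25th-percentile floor. How many listed genes were measured differs with the floor, and nothing is read from these counts. The cause of these shifts was not tested. Phgdh, a setting added after the data were seen, ranged from 0.60 with the floor at the 75th percentile to 3.06 as the median of its probe sets. No paired analysis was possible because each group has 1 array.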
